A study of Ginkgo biloba with 2 samples.

Results

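Plant cells translate messenger RNA on 3 kinds of ribosome: in the cytosol, in plastids and in mitochondria. Plastid and mitochondrial ribosomes are of bacterial type. Each consists of a small subunit, which decodes the messenger, and a large subunit, which joins amino acids. Organelle genomes kept only part of the genes for their proteins, and the remaining proteins are encoded in the nucleus, made in the cytosol and imported. The sequences described here are those that the deposited annotation assigns to this imported class, in ginkgo (*Ginkgo biloba*), a gymnosperm tree.

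Members were chosen by annotation and not by expression. A reference sequence was taken if its gene ontology function was structural constituent of ribosome and its component term named a chloroplast, a plastid or a mitochondrion. Sequences with a cytosolic component term, or with a BLAST description that names an organelle genome, were left out. Of 64515 reference sequences, 538 carried the function term and 107 met the whole rule. They fell into 56 annotated to plastids, 26 annotated to mitochondria and 25 annotated to both organelles, and these 3 sets are described apart. Of the other sequences with the term, 352 were cytosolic, 73 named neither place and 6 were described as encoded in an organelle genome. Of the 352, 203 carried an organelle term as well.

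Female trees gave both samples, taken in April 2012 from mature ovules and from leaves that had fully expanded, with no treatment named in the labels. Each tissue has 1 library, with 4581771 uniquely mapped reads in ovules and 4245222 in leaves. Without replicates there is no test, and a difference is one between these 2 libraries only. Sequences described as Rubisco activase, a leaf enzyme, had 280 ovule and 5084 leaf reads, and those described as AINTEGUMENTA, a regulator of ovule growth, had 282 and 0. In whole organs, fewer cells of a type and less messenger per cell cannot be told apart.

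The annotation supports the label in part. No function was named for 76 of the 107 members, whose closest protein was mostly an unnamed product of Sitka spruce (*Picea sitchensis*), so these members are called by their identifiers. A ribosomal protein name was given to 13 further members. Another 10 carry names that plant organelle genomes commonly encode, such as S3, S12, L2, L16 and L22. The deposited description does not say which genome they come from. The remaining 8 had another name, such as cell wall-associated hydrolase or cinnamyl alcohol dehydrogenase. Several members shared a closest protein and may be parts or copies of 1 gene. The 56 plastid members had 40 distinct closest proteins, the 26 mitochondrial members 23 and the 25 members of both organelles 20.

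Levels are given as RPKM, which is reads per 1000 bases of sequence and per 1000000 uniquely mapped reads. Ratios are log2 of ovule over leaf after adding 0.5 to each RPKM, for sequences that reach 1 RPKM in either library. The word called is used where the log2 ratio is 1 or more in size. Of the members, 87 passed this filter: 46 plastid, 21 mitochondrial and 20 of both organelles. A fold is the ratio of reads per 1000000, with an exact 95% interval that covers counting error only. A fold against an empty library is taken against 3 reads and written as at least that value. Counting error in the library with reads is not part of that value, and the limit of the exact interval, given beside it, is therefore smaller.

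The 3 sets did not share a ratio between the libraries. Mitochondrial ribosomal proteins were higher in ovules, with 5464 ovule reads and 1855 leaf reads in sum, a 2.73-fold difference (2.59 to 2.88). Plastid ribosomal proteins were nearly level, with 14494 and 13974 reads, which is 1.04-fold higher in leaves (1.02 to 1.07). The set annotated to both organelles lay between them, with 2130 and 1020 reads, 1.93-fold higher in ovules (1.79 to 2.09). The fold of the mitochondrial set was 2.84 times that of the plastid set (counting interval, 2.68 to 3.01), or 2.22 times (2.10 to 2.36) without the most-read plastid member. Sequences are not replicates, and this interval says nothing of the spread between trees.

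**Figure D1:**
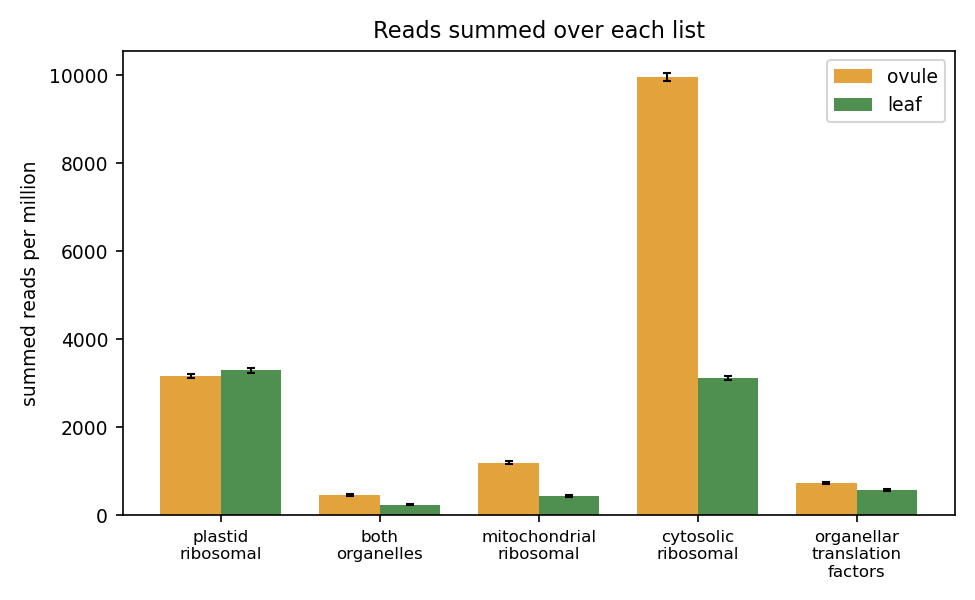
Reads per 1000000 summed over each list (vertical axis) in the ovule and the leaf library, with exact 95% Poisson intervals as error bars. The plastid bars are nearly equal at 3163 and 3292, the mitochondrial bars stand at 1193 and 437, and the cytosolic bars at 9961 and 3120.

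Counted by sequence, 13 of 21 mitochondrial members (61.9%) were called higher in ovules and 1 (4.76%) higher in leaves. Over all 56768 sequences past the filter the shares were 27.3% higher in ovules and 35.1% higher in leaves. In the plastid set 10 of 46 were called higher in ovules (21.7%) and 9 in leaves (19.6%), so 27 were not called. This balance depended on scaling: the plastid counts were 7 and 12 with TMM scaling, and 8 and 13 with TPM. Over all sequences, TMM gave 14139 and 21368 of 57003, and TPM 14481 and 22371 of 58281. In the set of both organelles 15 of 20 were called higher in ovules and 2 in leaves. Where the counting interval also had to exclude 1, the calls were 13 and 1 for mitochondrial, 9 and 7 for plastid and 9 and 2 for members of both organelles, against shares of 17.3% in ovules and 13.6% in leaves over all sequences. The median log2 ratio was 1.64 for mitochondrial members (0.71 to 1.88), 0.22 for plastid members (-0.30 to 0.68) and 1.41 for members of both organelles (1.0 to 1.95) (order-statistic intervals over sequences), beside -0.10 over all sequences. With empty libraries set at 3 reads, the median for members of both organelles was 1.15, and the mitochondrial and plastid medians did not move. The intervals on medians take sequences as independent, which those that share a closest protein may not be. Summed per closest protein, the median was 1.67 for the mitochondrial set and 0.50 for the plastid set.

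Abundant sequences as a whole leaned to ovules, so the same counts were taken at a level of 10 RPKM or more. Of all 19844 such sequences, 41.8% were higher in ovules and 19.8% in leaves, with a median of 0.66. Of the 17 mitochondrial members at this level, 12 were called higher in ovules and 0 in leaves, with a median of 1.70. Of the 30 plastid members, 7 were called higher in ovules and 4 in leaves, with a median of 0.32.

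**Figure D2:**
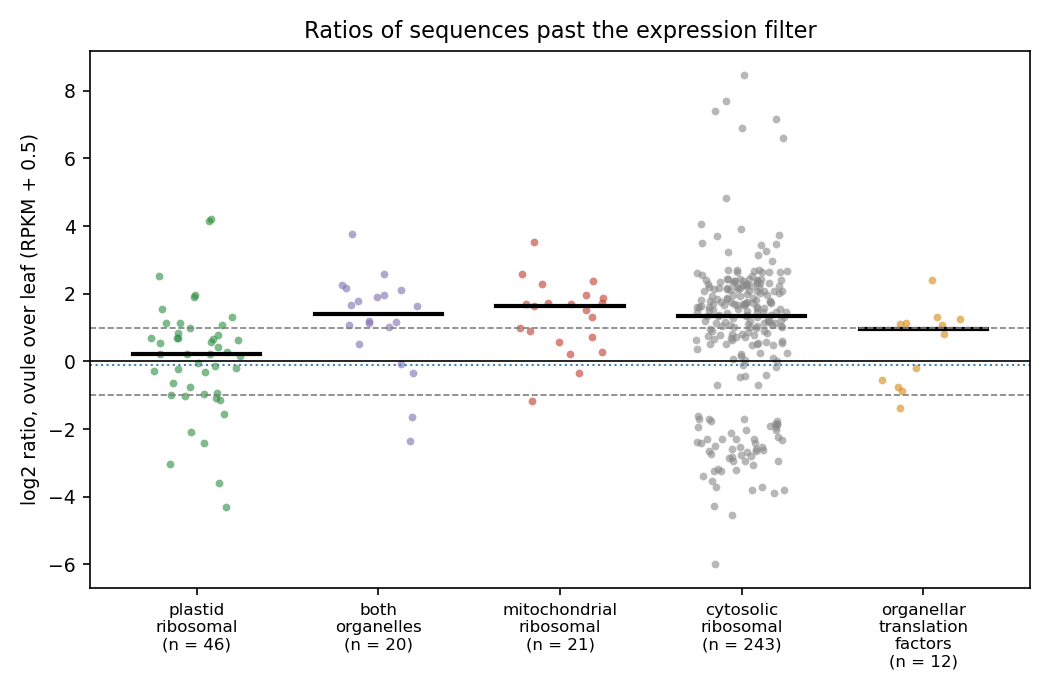
Log2 ratio of ovule over leaf (vertical axis, RPKM + 0.5) for each sequence past the filter, by list. Points are sequences spread sideways at random, black bars are medians, dashed lines mark 2-fold and the dotted blue line the median of all sequences (-0.10). Most mitochondrial points lie above 0 and the plastid points lie on both sides of it.

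Mitochondrial members with a large-subunit annotation had calls in 1 direction. Of 13 such members, 11 passed the filter. Called higher in ovules were 10 (90.9%) and in leaves 0, beside 27.3% and 35.1% of all sequences. Of the 10 at 10 RPKM or more, 9 were called higher in ovules, beside 41.8% of all sequences at that level. The fold of summed reads was 3.33 (3.08 to 3.61). In *Escherichia coli* the L7/L12 protein forms the stalk of the large subunit, where translation factors dock. Its 3 sequences had ovule and leaf values, in RPKM, of 58.5 and 20.02 (Unigene17910), 46.1 and 13.9 (Unigene5644) and 6.59 and 1.78 (a GenBank sequence of 530 bases). All of them were called higher in ovules, by 2.93-fold (2.38 to 3.62), 3.31-fold (2.38 to 4.68) and 3.71-fold (1.20 to 15.2). L4 lines the tunnel through which the new protein leaves in *E. coli*, and its sequence (Unigene16984) stood at 55.7 in ovules and 14.04 in leaves, 3.97-fold higher in ovules (3.15 to 5.03). L15, a protein that joins the large subunit late in its assembly in *E. coli*, had an RPKM of 80.8 and 21.6 (Unigene10858), 3.75-fold higher (3.08 to 4.59). L2 sits close to the site of peptide bond formation in *E. coli*, and its mitochondrial-like sequence (Unigene34408) had 96 ovule and 7 leaf reads, 12.7-fold higher in ovules (5.94 to 32.5). That sequence is 373 bases long. The remaining member of the 11 (Unigene19954) was just under the line, at an RPKM of 52.7 and 26.2 and a log2 ratio of 0.99.

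Other large-subunit members of the mitochondrial set had no protein name, and all 4 of these past the line were higher in ovules. Unigene6931 stood at 130 RPKM in ovules against 51.8 in leaves, 2.51-fold higher (2.10 to 3.01). Unigene5206 had 244 and 42 reads, 5.38-fold higher in ovules (3.87 to 7.66), and Unigene24669 had 164 and 24, 6.33-fold higher (4.11 to 10.2). CL7049.Contig1 had 126 and 34 reads, and with a second contig of the same closest protein 127 and 34, 3.46-fold higher (2.35 to 5.21). The ratios of Unigene5206 and Unigene24669 are above that of L4, with intervals that overlap. A further large-subunit member of this set is described as the chloroplast protein L3-2 (CL5829.Contig2), so its name and its term differ, and it had 2 ovule reads and no leaf read.

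The most abundant mitochondrial member of all had no subunit annotation. Unigene6203 reached 202 RPKM in ovules against 40.7 in leaves, 4.96-fold higher in ovules (4.11 to 6.02). Besides the ribosome term it carries the function peptidyl-prolyl isomerase, an activity that helps proteins fold.

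The small subunit was represented by 2 mitochondrial members, which differed in direction. S9, a protein of the small-subunit head in *E. coli*, was the most-read mitochondrial member (Unigene20094), with 869 ovule and 240 leaf reads and RPKM values of 103 and 30.8. It was 3.35-fold higher in ovules (2.90 to 3.89). S10 (Unigene29744), whose closest protein is from the cycad *Cycas taitungensis*, had 8 and 18 reads and was 2.43-fold higher in leaves (1.0 to 6.45). S10 was the only mitochondrial member called higher in leaves, and it is among those whose name is common in plant mitochondrial genomes.

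Across the 21 mitochondrial members past the filter, log2 ratios ran from -1.17 to 3.53, with 19 above 0, and some members were close to level. Unigene10162, which also carries an iron-sulfur cluster term, stood at 62.7 RPKM in ovules against 54.4 in leaves, 1.15-fold higher in ovules with an interval that includes 1 (0.959 to 1.39). Unigene672 had 35.2 and 23.5, 1.5-fold higher (1.23 to 1.84), and CL251.Contig1 had 47.7 and 25.3, 1.89-fold higher (1.53 to 2.33). The 3 sequences described only as a putative mitochondrial protein had 156 and 130 reads in sum, a difference not detectable at this depth (fold 1.11, 0.875 to 1.41). Reads covered at most 10.1% of the bases of the most-read of them in either library.

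**Figure D3:**
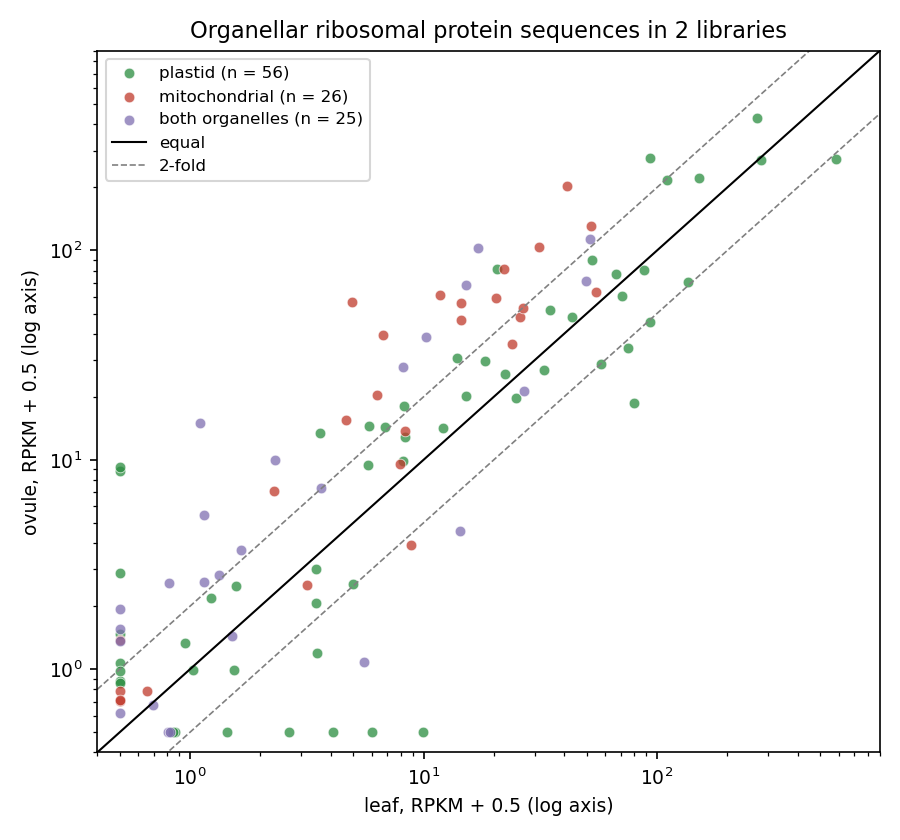
RPKM + 0.5 in leaves (horizontal) and in ovules (vertical) for all 107 members on log axes, coloured by set, with lines for equal levels and 2-fold. Mitochondrial points lie mostly above the upper dashed line, and the most abundant plastid points spread from above it to just below the lower one.

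In the plastid set the difference depended on the protein. Reads were concentrated: the 6 most-read members took 69.5% of the set's reads in ovules and 68.7% in leaves. The most abundant was Unigene6428, a large-subunit member with an RNA-binding term, at 274 RPKM in ovules against 582 in leaves. It was 2.12-fold higher in leaves (2.02 to 2.23) and took 17.2% of the set's reads in ovules and 35.2% in leaves. Without it the summed reads of the plastid set turned to 1.23-fold higher in ovules (1.19 to 1.26). Log2 ratios of the 46 members past the filter ran from -4.31 to 4.21, with 26 above 0 and 20 below. Sequences described as chlorophyll a-b binding proteins, which hold the antenna pigments of leaf plastids, were 2.67-fold higher in leaves on 3940 and 9733 reads, and their part in the plastid values was not tested.

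The next most abundant plastid members leaned to ovules or were level. Unigene23984 stood at 430 RPKM in ovules against 268 in leaves, 1.6-fold higher in ovules (1.49 to 1.73), and Unigene11028 at 222 and 151, 1.46-fold higher (1.35 to 1.59). Unigene16082, annotated to embryo development and to protein targeting to the chloroplast, was level at 270 and 280 (fold 0.967, 0.905 to 1.03). Unigene12163, annotated to binding ribosomal RNA and to thylakoid membrane organization, stood at 275 and 92.9, 2.96-fold higher in ovules (2.64 to 3.32). Unigene16381, annotated to binding ribosomal RNA and to chlorophyll synthesis, was just under the line at 217 and 110, a log2 ratio of 0.98. Of the 6 most-read members only Unigene6428 was higher in leaves by more than 2-fold, and only Unigene12163 higher in ovules by as much.

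Further plastid members with large ratios were less abundant. Unigene11137 had 80.8 RPKM in ovules against 20.2 in leaves, 4.0-fold higher in ovules (3.11 to 5.22). A GenBank sequence of 576 bases with the same closest protein had 0 and 23 reads, at least 8.27-fold higher in leaves (interval limit, 6.20), and together they were 3.06-fold higher in ovules (2.44 to 3.88). Unigene11097 went the other way, at 18.3 and 79.2, 4.34-fold higher in leaves (3.67 to 5.15). A GenBank sequence of 723 bases with the same closest protein had 0 and 17 reads, and the pair was 4.44-fold higher in leaves (3.76 to 5.27). Unigene6550 stood at 45.1 and 92.7, and a GenBank sequence of 594 bases with the same closest protein at 33.8 and 74.6. This pair was 2.12-fold higher in leaves (1.80 to 2.49), so its parts had like ratios. Unigene24026, of the large subunit, was level at 79.8 and 87.3 (fold 0.914, 0.799 to 1.05). A GenBank sequence of 425 bases with the same closest protein had 17 reads in ovules alone, which gives the highest log2 ratio of the set (4.21), and the pair was level on 454 and 443 reads (fold 0.950, 0.831 to 1.08). A GenBank sequence of 629 bases had 24 ovule reads and no leaf read, a ratio of at least 7.41 to ovules (interval limit, 5.58). With 2 contigs of the same closest protein the counts were 30 and 18, with an interval that includes 1 (0.833 to 2.94). Its ratio alone is therefore not that of all sequences with this closest protein. Unigene11851, a large-subunit member, was 2.25-fold higher in ovules (1.75 to 2.92), and Unigene27242, of the small subunit, 2.63-fold on 34 and 12 reads (1.33 to 5.57).

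Few plastid members had a protein name. L25, which binds the 5S ribosomal RNA in *E. coli*, stood at 89.4 RPKM in ovules against 52.3 in leaves (Unigene12013), 1.71-fold higher in ovules (1.48 to 1.98). S13, of the head of the small subunit, had 0 and 4 reads on 262 bases (Unigene6832), too few to show a difference. It is still among the members called higher in leaves. So is Unigene31939, with 0 and 5 reads and a closest protein from *Phytophthora sojae*. The counting intervals of both include 1. The 2 contigs described as L18 had 3 and 5 reads in sum. L22, for which the closest protein is from ginkgo itself, is among the names common in organelle genomes. Its description does not say which genome it comes from. It had 41 and 31 reads, with an interval that includes 1 (0.750 to 2.02).

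The subunits of the plastid ribosome could be compared only roughly, because 40 of its 56 members named no subunit. The 10 large-subunit members were 1.61-fold higher in leaves (1.54 to 1.67) in sum, but 1.38-fold higher in ovules without Unigene6428. The 6 small-subunit members had 162 and 82 reads and were 1.83-fold higher in ovules (1.40 to 2.42).

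Plastid members were also sorted by a few terms of their annotation, chosen after values were seen and described without a test. Members with a thylakoid term, 15 past the filter, included 3 called higher in ovules (20%) and 6 in leaves (40%), near the 27.3% and 35.1% of all sequences, with a median log2 ratio of -0.05. The 31 past the filter without this term included 7 and 3, with a median of 0.28. Of 39 members with a stroma term, 34 passed the filter, and 7 of these were called each way (20.6%). Members annotated to ribosomal RNA binding, 13 past the filter, had a median of 0.41 and summed reads 1.91-fold higher in ovules (1.81 to 2.02). The 33 without it had a median of -0.05 and summed reads 1.24-fold higher in leaves (1.21 to 1.27), which turned to 1.04-fold higher in ovules (1.01 to 1.07) without Unigene6428. Members with a term for chlorophyll synthesis or photosynthesis, 7 past the filter, were 1.54-fold higher in leaves in sum (1.48 to 1.6), which turned to 1.52-fold higher in ovules (1.40 to 1.64) without Unigene6428.

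**Figure D4:**
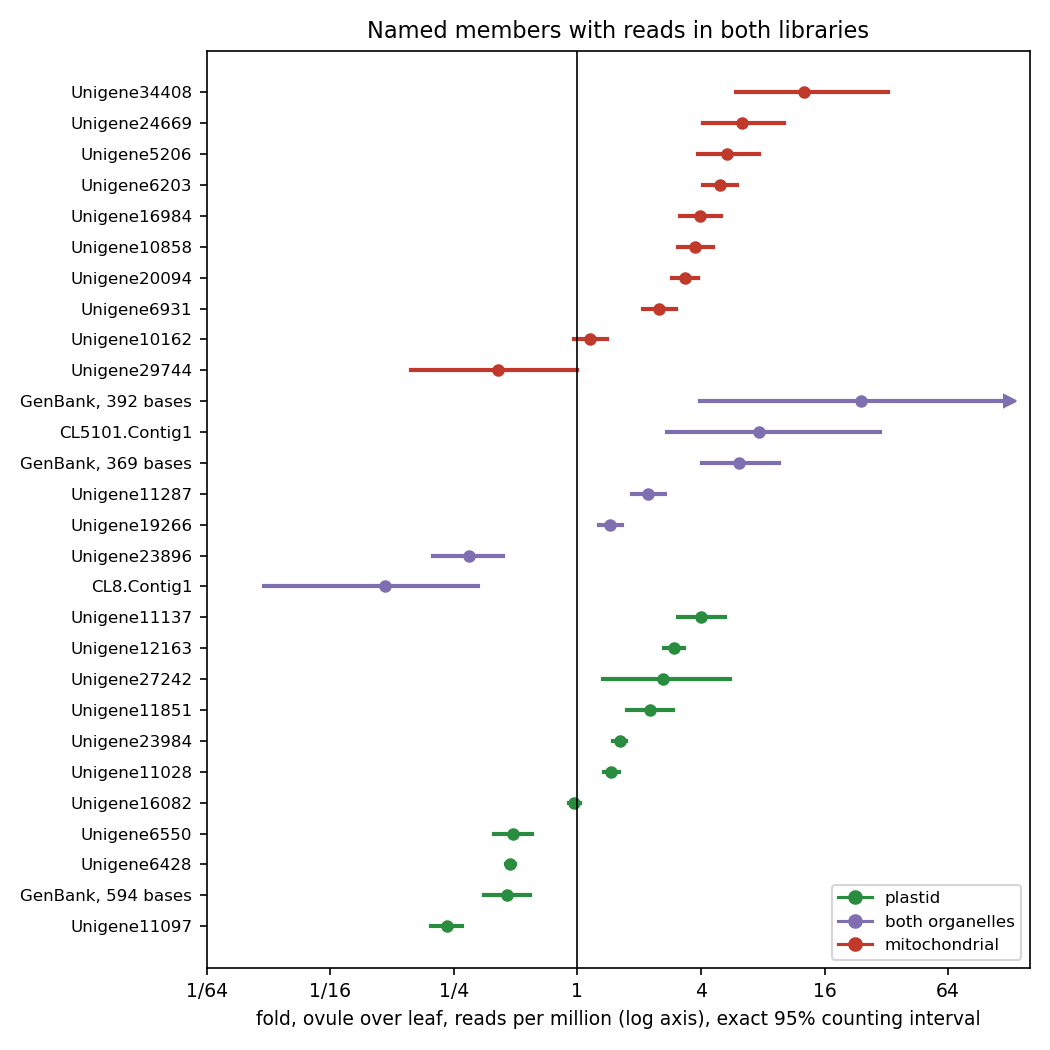
Fold of ovule over leaf (horizontal, log axis) with its exact 95% counting interval for each named member with reads in both libraries, by set. Arrowheads mark intervals past the axis. Among the named mitochondrial members Unigene29744 lies below 1 and Unigene10162 has an interval across 1, while the plastid members lie on both sides of 1.

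By sequence, members annotated to both organelles were nearer the mitochondrial set than the plastid set, and in summed reads they lay between. Of the 9 at 10 RPKM or more, 6 were called higher in ovules and 1 in leaves, with a median log2 ratio of 1.78. Over all sequences at that level the shares were 41.8% and 19.8%. L18, another 5S ribosomal RNA-binding protein in *E. coli*, stood at 113 RPKM in ovules against 50.9 in leaves (Unigene11287), 2.22-fold higher in ovules (1.84 to 2.68). Unigene19266, of the small subunit, is annotated to egg cell differentiation in the embryo sac and had 71.2 and 49.3, 1.44-fold higher (1.27 to 1.65). Unigene14668 had 68.1 and 14.7, 4.65-fold higher (3.49 to 6.29). Unigene23896, whose annotation names the stroma, the thylakoid and chlorophyll synthesis, went the other way with 36 and 113 reads, or 36 and 114 with its partner of the same closest protein, 3.42-fold higher in leaves (2.33 to 5.12). CL5101.Contig1, with no function named, had 33 and 4 reads, and with a second contig of the same closest protein 34 and 5, 6.30-fold higher in ovules (2.45 to 20.6). A contig described as cinnamyl alcohol dehydrogenase (CL8.Contig1), an enzyme of lignin synthesis, had 4 and 32 reads, 8.63-fold higher in leaves (3.06 to 33.6).

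In the same set were 8 sequences with names common in organelle genomes. S12 takes part in decoding in *E. coli*, and its ginkgo sequence from GenBank stood at 102 RPKM in ovules against 16.6 in leaves, 6.13-fold higher in ovules (4.04 to 9.65). The 2 S3 sequences had 53 and 7 reads in sum, 7.02-fold higher (3.18 to 18.3). All 8 together had 240 and 37 reads, 6.01-fold higher in ovules (4.24 to 8.74). Where an organelle genome is the source, these are not imported proteins, and how its transcripts entered the libraries was not tested. Apart from these 8, a small-subunit sequence described as a mitochondrial protein of ginkgo had 26 and 1 reads, 24.1-fold higher (3.96 to 988).

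Reads covered the members unevenly. A library was empty for 8 plastid members in leaves, for 7 in ovules and for 4 mitochondrial members, all in leaves and none past the filter. Of 24 plastid members with at least 50 reads in both libraries, 13 were covered over less than 50% of their bases in both, against 1 of 11 mitochondrial members. The median coverage was 45.3% in ovules and 46.9% in leaves for the plastid members and 93.7% and 88.1% for the mitochondrial ones. Mitochondrial members with fewer than 50 leaf reads are outside this comparison, and some called higher in ovules were poorly covered. Unigene24669 was covered over 36.9% in ovules and 27.84% in leaves, CL7049.Contig1 over 31.35% and 27.35%. A GenBank sequence of 790 bases had 33.54% and 28.23%. Unigene5206, Unigene5644 and Unigene34408, also outside it, were covered over more than 50% in both. A GenBank sequence of 618 bases had 199 ovule and 356 leaf reads on 14.56% of its bases in both libraries, and it shares its closest protein with Unigene6413, which had 98 and 112. In sum this pair was 1.70-fold higher in leaves (1.47 to 1.97). Only uniquely mapped reads were counted, and whether the uncovered bases are those shared between reference sequences was not tested. Levels of such members are uncertain. Among plastid members at least 50% covered, 4 were called higher in ovules and 2 in leaves, with summed reads 0.909 of ovule over leaf. The share called over all sequences with such coverage was not computed, so these counts have no background to be read against.

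**Figure D5:**
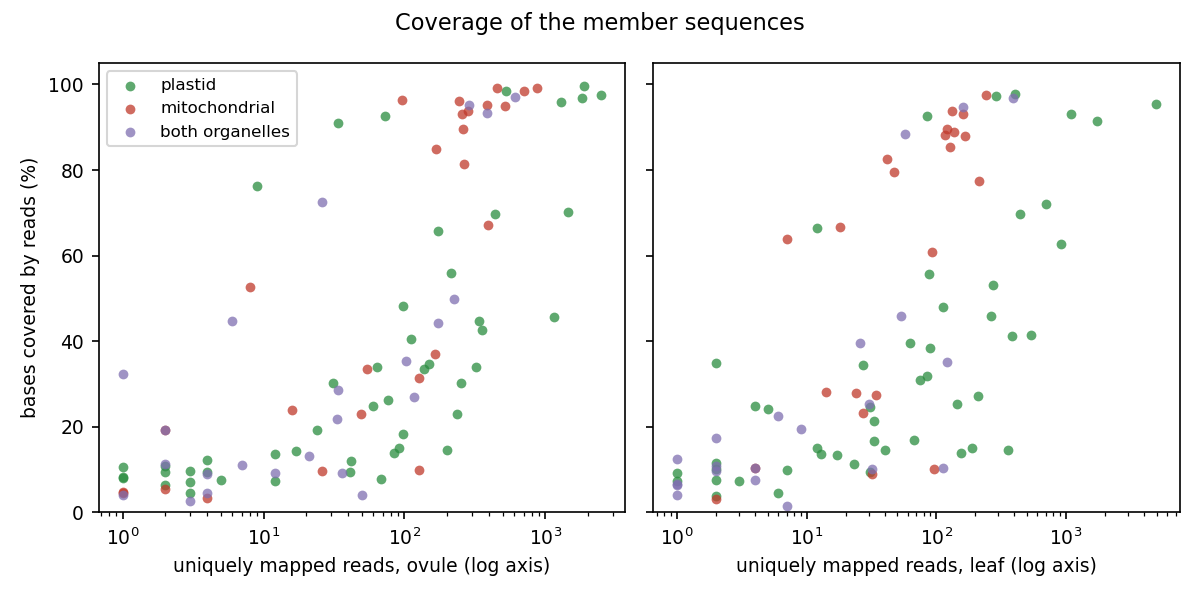
Percent of bases covered by reads (vertical) against uniquely mapped reads (horizontal, log axis) for members with reads in that library, ovule left and leaf right. Many plastid members with over 100 reads lie below 50%, and some mitochondrial members with over 100 reads lie below 50% as well.

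Cytosolic ribosomal proteins were the nearest comparison. Their summed reads were 3.19-fold higher in ovules (3.13 to 3.26), with 145 of 243 sequences called higher in ovules (59.7%), 56 in leaves (23%) and a median log2 ratio of 1.33, beside 27.3% and 35.1% of all sequences. At 10 RPKM or more, 106 of 134 were called higher in ovules and 4 in leaves, beside 41.8% and 19.8% of all sequences at that level. Their fold was 1.17 times that of the mitochondrial set (1.11 to 1.24) and 3.32 times that of the plastid set (3.22 to 3.42). Plastid members took 38.5% of all reads on ribosomal protein sequences in leaves (exact 95% binomial interval, 38.01 to 39.01) and 18.7% in ovules (18.5 to 19.0). Mitochondrial members took 5.11% in leaves (4.89 to 5.34) and 7.06% in ovules (6.88 to 7.24). As shares of the whole library, plastid members were 0.329% in leaves and 0.316% in ovules. Sequences described as histone H3, abundant in dividing cells, were 20.8-fold higher in ovules, on 3167 and 141 reads, and their part in the mitochondrial and cytosolic values was not tested.

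Organellar translation factors work with these ribosomes. Those with a mitochondrial term leaned to ovules, and those with a plastid term had calls in both directions. Elongation factor Tu, which delivers aminoacyl-tRNA, stood at 123 RPKM in ovules against 22.9 in leaves in the form with a mitochondrial term (Unigene18722), 5.36-fold higher in ovules (4.61 to 6.27). Elongation factor Ts, which recharges it, was 2.44-fold higher (1.88 to 3.19; Unigene25191), and an initiation factor IF-2 was 2.16-fold higher (1.69 to 2.77; Unigene535). The 5 factors with a mitochondrial and no plastid term were 1.68-fold higher in ovules in sum (1.58 to 1.80), or 3.81-fold (3.42 to 4.27) without a factor G contig (CL2.Contig2) at 64.9 and 75.1, whose closest protein is from a green alga.

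Among the 11 factors with a plastid and no mitochondrial term, initiation factor IF-3 (Unigene12135) stood at 65.0 RPKM in ovules against 121 in leaves, 1.86-fold higher in leaves (1.66 to 2.08). Peptide chain release factor 2 (CL3886.Contig1), which ends translation, had 15 and 42 reads, 3.02-fold higher in leaves (1.64 to 5.87). The 3 short elongation factor Tu sequences past the filter went the other way, the closest protein of a pair of them being from green algae, each between 2.16-fold and 2.51-fold higher in ovules. In sum the plastid factors were 1.47-fold higher in leaves (1.34 to 1.62), which became 1.16-fold higher in ovules with an interval that includes 1 (0.973 to 1.38) without Unigene12135. The remaining factor, a release factor with both terms, had 0 and 2 reads. Over all 17 factors, 6 of the 12 past the filter were called higher in ovules (50%) and 1 in leaves (8.33%), beside 27.3% and 35.1% of all sequences, with a median log2 ratio of 0.94. With TMM or TPM scaling the counts were 3 and 2.

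Proteins that assemble organellar ribosomes were few. Of 7 GTPases of the Der, Obg and RsgA type, 6 passed the filter, with a median log2 ratio of 0.60. Called higher in ovules was 1 (16.7%) and in leaves 0, beside 27.3% and 35.1% of all sequences. That call rested on 5 and 0 reads, with a counting interval that includes 1. The Der-like sequence with a mitochondrial term (Unigene13129) was 1.82-fold higher in ovules (1.39 to 2.40), and the RsgA-like sequence with a chloroplast term (Unigene18349) was 1.46-fold higher in leaves (1.16 to 1.83). Of the 6 ribosomal protein sequences described as chloroplast-encoded, rpl32 had 294 and 181 reads (CL6671.Contig2) and rps18 had 72 and 77 (Unigene18403). The first was 1.51-fold higher in ovules (1.25 to 1.82), and the interval of the second includes 1 (0.619 to 1.21). The other 4 had at most 8 reads in either library.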

How the data were processed

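For both libraries the authors deposited a table with, per the file headers, a count of uniquely mapped reads for every reference sequence, its length, the percent of its bases covered (coverage) and its RPKM. Frozen tissue was extracted with CTAB, per the labels' protocols. How reads were assembled, aligned and annotated is not given in the sources used here. In both tables the counts added up to the total named in the header, and RPKM followed from count, length and that total, to a relative tolerance of 1e-06. A sequence absent from a table was therefore given 0 reads, and the tables were joined by identifier. An empty library was set at a floor of 3 reads, which is 0.655 RPKM for ovules and 0.707 for leaves on 1000 bases. The files pair no nucleotide sequence with the identifiers, so none is shown.

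Ratios, calls and intervals were computed with Python 3.11.15, pandas 2.3.3, numpy 2.4.6 and scipy 1.17.1, and TMM factors with edgeR 4.0.16. The computation of calls, intervals and ratios was checked on counts simulated with counting error only. That check cannot show the spread between trees. Intervals cover counting error only, and those on a median are order-statistic 95% intervals over sequences. Subunits came from component terms or from L and S names, the first added to the planned use of descriptions. Named were the 5 members with the highest mean RPKM in each set (3 for both organelles) and the 5 (3) with the largest ratio each way at 20 reads or more and an interval excluding 1. Where a named member shared its closest protein with others, the sum is given too. Other members are named to show a protein, a subunit or the sequence nearest the line, and were picked with values known. Members and lists were chosen with earlier results of these data known.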

Additional observations from a re-analysis of the deposited data

How the results depend on the processing

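The main limit is that 1 library was made per tissue, so no alternative could leave out a replicate. No paired analysis was possible because each tissue has 1 library and no result comes from a test. Depth limits members with few reads: 11 plastid, 4 mitochondrial and 8 members of both organelles had at most 5 reads over both libraries. The median log2 ratio over all sequences, -0.10, was -0.24 with TMM scaling and -0.25 with TPM. Alternatives on coverage, on names, on adding the set of both organelles, on an RPKM of 10, on the subunits, on annotation terms and on the comparison lists were chosen after seeing the data. Of the recomputed summary values, 162 stayed within their interval or, for counts, within 1.5 times, and 50 did not. Among the 162, folds of summed reads without a filter could not change, because all members enter that sum. Medians were held against their intervals over sequences, which are wide, so staying within them says little. Of the recomputed log2 ratios of named members, 111 stayed within their interval, 9 did not, and none of the called ones changed sign. Calls could still be lost: Unigene11851 fell to 0.993 with TMM and 0.985 with TPM, and Unigene11287 to 0.989 and 0.978.

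The plastid count higher in ovule (10) became 0 among members named organellar, 25 with the set of both organelles and 4 at 50% coverage. The count higher in leaf (9) became 5 per closest protein, 1 among members named organellar, 2 at 50% coverage and 4 at an RPKM of 10. These subsets differ in size from the whole set, so the counts alone do not show a change in share. The plastid median became -1.13 among members named organellar, of which 2 passed the filter. Its fold of summed reads (0.961) became 0.864 with TMM, 1.23 without the most-read member, 1.67 among members named organellar, 0.985 among assembled sequences, 1.03 with the set of both organelles and 0.909 at 50% coverage, so its direction is not settled.

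The mitochondrial count higher in ovule (13) became 6 among members named organellar and 28 with the set of both organelles. Members named organellar are fewer and the joined set is larger, so these counts alone do not show a change in share. The median log2 ratio of members named organellar was 1.67, beside 1.64 in the whole set. The count higher in leaf (1) became 0 among members named organellar, 0 without organelle-genome and other names, 3 with the set of both organelles and 0 at an RPKM of 10. The fold (2.73) became 2.45 with TMM, 3.03 among members named organellar and 2.45 with the set of both organelles.

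For both organelles the ovule count (15) became 8 at an RPKM of 5. For cytosolic proteins the leaf count (56) became 11 at an RPKM of 5, and the median (1.33) became 0.94 without a filter and 1.69 at an RPKM of 5. Fewer sequences reach an RPKM of 5, and the share called over all sequences at that level was not computed. For translation factors the ovule count (6) became 3 with TMM and 3 with TPM, and the leaf count (1) became 2 with a pseudocount of 0.1, without a filter, with TMM and with TPM. For assembly GTPases the ovule count (1) became 2 with a pseudocount of 0.1 and 0 at an RPKM of 5. With TMM the folds became 0.559 (plastid large), 1.08 (plastid, no subunit named), 3.0 (mitochondrial large), 1.81 (mitochondrial, no subunit named) and 1.47 (small subunit of both organelles). Without the most-read member they became 1.38 (plastid large), 1.27 (plastid, no subunit named), 1.45 (mitochondrial, no subunit named), and in the set of both organelles 3.82 (large), 2.13 (small) and 1.18 (no subunit named). Likewise, plastid members without a term for ribosomal RNA binding became 1.04 and those with a chlorophyll or photosynthesis term 1.52, both without the most-read plastid member, and translation factors became 3.81 (mitochondrial) and 1.16 (plastid). The cause of these shifts was not tested.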

Other observations

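Reference sequences that share a closest protein with a member but do not meet the rule numbered 9, with 337 ovule and 152 leaf reads in sum. Across members past the filter, RPKM in ovule and leaf ranked alike, with a Spearman rho of 0.88 over 46 plastid members, 0.76 over 21 mitochondrial members and 0.74 over 20 of both organelles. These are correlations across sequences that share length and annotation, and sequences are not independent replicates. The 2 libraries thus ordered the members similarly by level, and the mitochondrial set was shifted toward ovule.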
